A study of Mus musculus with 48 samples.

Results

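The remote zone (RZ) is the myocardium of an infarcted heart that lies away from the ligated artery, and the question addressed here is whether its macrophages differ in H3K27ac from those of the same zone after a sham operation. The comparison used 8 of the 42 libraries that had a file, out of 48 labelled samples. They were the 4 libraries titled as remote zone of P10 hearts after myocardial infarction (MI) and the 4 titled as remote zone of P10 hearts after sham surgery. All came from C57BL/6 mice operated on at postnatal day 10. MI was induced by a suture around the left anterior descending coronary artery, and hearts were taken at 3 or 7 days after surgery. Each group held 2 libraries: numbers 2 and 3 at day 3, and numbers 1 and 2 at day 7. An MI and a sham library of the same day and number formed a pair, which gave 4 pairs. The treatment label reads myocardial infarction for every sample, so MI and sham were taken from the titles. Each library came from pooled hearts cut roughly into infarct zone (IZ), border zone (BZ) and RZ. CD45+ F4/80+ cells were sorted out of each zone, so a library can hold any cell type that passed that gate. Per the study's methods, tagged cells were then sorted in small numbers into wells, so a library is a sample of the gated cells. The number of cells in each library was not read here. Each pool held several hearts, mice of both sexes were used, and nothing says that replicates within a group were separate in every step, so p values measure the spread between these libraries. The share of pairs on chromosome Y was 0.00522%, 0.0365%, 0.00347% and 0.00774% in the MI libraries and 0.0247%, 0.0256%, 0.0098% and 0.0278% in the sham libraries, each in the order day 3 number 2, day 3 number 3, day 7 number 1 and day 7 number 2. This order is used for every series of values below.

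H3K27ac is a histone mark found at active promoters and enhancers, and CoBATCH maps it in single cells with an antibody-guided transposase that cuts and tags the marked DNA. Cardiac macrophages include cells that settled in the heart before birth and renew there, and cells that derive from circulating monocytes. After an infarct, monocytes enter the damaged muscle first, while the remote muscle keeps beating under a changed mechanical load. Since each library here is the sum over its sorted cells, fewer cells of a type and less mark per cell cannot be told apart.

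The unit of measurement was the unique read pair. Pairs were counted in H3K27ac regions, 23079 stretches of raised signal called from all 42 libraries together with equal weight for each group, and in gene windows. A window runs from 50 kb upstream of a protein-coding gene to 30 kb downstream, and takes only pairs that fall in regions. Levels are CPM, counts scaled to the total of pairs in regions, and differences are log2 of MI over sham. A window reads all regions around a gene and not the gene alone, and neighbouring windows share pairs. The 8 libraries held between 137158 and 1008148 pairs, of which 69692 to 531867 lay in regions. MI day 3 number 3 was the shallowest library, and 1 pair in it was worth 14.3 CPM, against 1.88 CPM in the deepest. The share of pairs in regions was 48.8% ± 8.42 (SD, n = 4) in MI and 46.9% ± 5.13 (SD, n = 4) in sham. The difference was 1.87 percentage points, with MI higher in 3 of 4 pairs, and did not exceed the spread between pairs (exact sign-flip test, two-sided, p = 0.625; 4 pairs cannot reach 0.05 in this test). Of the pairs in regions, 69.0% lay at promoters in both arms.

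The sort was checked on marker windows as the level over the genome average. Windows of macrophage lineage genes stood at 8.22 to 12.5 times that average in the 8 libraries, with Spi1, the gene of the myeloid factor PU.1, at 8.63 to 13.2 and Csf1r, the receptor for the macrophage growth factor, at 8.16 to 13.5. Fibroblast windows reached 0.164 to 0.936 and cardiomyocyte windows 0.465 to 0.923 times the average. B cell windows stood at 1.12 to 2.44, and neutrophil windows at 1.79 to 2.72 in MI and 1.40 to 2.49 in sham, so the arms overlapped for neutrophils.

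The 3 regions with the smallest p in each direction over both days, among regions with the same sign in all 4 pairs, are given first. None passed the test (adjusted p = 0.641 for each, limma over 42 libraries). In a limma fit of the 8 RZ libraries alone none of them passed either (adjusted p from 0.0518 to 0.182). That fit called 10 other regions over both days. Among those was chr10:127568501-127638500, whose nearest gene start is that of Lrp1 (adjusted p = 0.00956 with 8 libraries and 0.641 with 42). The 200 bases at the centre of 5 of them are printed from the GRCm38 genome on its plus strand; the sixth, at the promoter of the translation factor gene Eif4g1, is centred in a UTR and not printed. Capitals mark matches, on either strand, to the motif letters GAGGAAGT (PU.1), TGAGTCA (AP-1), TTGCNNAA (C/EBP) or TGTGGT (RUNX), or to the IRF motif. These motifs are present in 1.86%, 3.51%, 6.96%, 12.8% and 2.63% of the centres of all 11951 regions tested.
chr11:11774501-11779000 (intergenic, higher in MI): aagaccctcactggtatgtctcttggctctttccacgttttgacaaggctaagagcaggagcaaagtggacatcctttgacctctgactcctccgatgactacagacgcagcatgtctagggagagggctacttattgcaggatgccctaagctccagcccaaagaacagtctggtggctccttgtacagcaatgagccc
chr7:27570001-27581000 (intron of 2310022A10Rik, higher in MI): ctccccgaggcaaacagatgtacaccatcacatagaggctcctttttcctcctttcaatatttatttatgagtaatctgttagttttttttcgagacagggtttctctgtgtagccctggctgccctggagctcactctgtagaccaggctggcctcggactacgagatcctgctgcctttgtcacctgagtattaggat
chr17:32522001-32525000 (intron of Cyp4f17, higher in MI): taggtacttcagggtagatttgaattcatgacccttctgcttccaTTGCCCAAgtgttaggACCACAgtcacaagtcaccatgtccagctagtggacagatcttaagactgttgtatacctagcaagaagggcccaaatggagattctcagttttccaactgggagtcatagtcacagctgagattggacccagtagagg
chr8:79294501-79296000 (promoter of Mmaa, centre in an exon of the lncRNA Gm4890, lower in MI): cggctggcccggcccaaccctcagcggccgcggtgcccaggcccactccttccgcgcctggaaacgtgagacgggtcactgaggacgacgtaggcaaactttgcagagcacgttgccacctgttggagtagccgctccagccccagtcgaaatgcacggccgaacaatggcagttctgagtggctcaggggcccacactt
chr12:55388001-55392000 (intron of Psma6, lower in MI): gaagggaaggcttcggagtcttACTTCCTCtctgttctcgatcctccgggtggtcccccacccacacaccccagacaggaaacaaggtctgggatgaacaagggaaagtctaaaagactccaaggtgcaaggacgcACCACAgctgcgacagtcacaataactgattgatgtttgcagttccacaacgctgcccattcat

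These regions held few pairs. The intergenic region on chromosome 11, whose nearest gene start is that of Fignl1 at 32181 bp, held 11, 2, 8 and 3 pairs in MI and 4, 1, 0 and 0 pairs in sham, a log2 difference of 2.14 ± 0.56 (SE, unadjusted p = 0.000194). The region in 2310022A10Rik held 36, 11, 33 and 9 pairs in MI and 5, 15, 11 and 3 in sham (1.46 ± 0.39, unadjusted p = 0.000338). The region in Cyp4f17, a gene of the cytochrome P450 family, held 4, 2, 2 and 4 pairs in MI and 1 pair in all sham libraries together, too few for a fold. CPM was higher in MI in all 4 pairs for these 3 regions, and the arms did not overlap in the first and the third. Among the lower regions, the promoter of Mmaa, a gene needed for vitamin B12 metabolism in mitochondria, held 4, 0, 4 and 0 pairs in MI and 19, 5, 7 and 2 in sham (-2.05 ± 0.54). The region in Psma6, a subunit of the proteasome, held 1, 0, 12 and 6 pairs in MI and 15, 8, 12 and 6 in sham (-1.87 ± 0.50). At the Eif4g1 promoter, chr16:20671501-20675500, the counts were 3, 0, 25 and 4 in MI and 20, 8, 17 and 10 in sham (-1.62 ± 0.45). A count of 0 allows up to 3 pairs, which is 43.0 CPM in MI day 3 number 3, and this covers counting error only.

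Across the 8 libraries over both days, no gene window passed the test between MI and sham in the fit over all 42 libraries (smallest adjusted p = 0.389 of 10208 windows, limma). Windows with an unadjusted p under 0.05 numbered 590, which is 5.78% of those tested, 312 higher (3.06%) and 278 lower (2.72%) in MI. At day 3 they numbered 855 (8.38%), 526 higher (5.15%) and 329 lower (3.22%), with a smallest adjusted p of 0.0762, and at day 7 they numbered 259 (2.54%), 125 higher (1.22%) and 134 lower (1.31%). Regions gave the same counts of 0 adjusted calls, with 626 (5.24%) under an unadjusted 0.05 over both days, 848 (7.1%) at day 3 and 377 (3.15%) at day 7. When only the 8 libraries were fitted, as 4 pairs, 55 windows (0.539%) passed over both days, 36 higher (0.353%) and 19 lower (0.186%), and 270 (2.64%) passed at day 3, 195 higher (1.91%) and 75 lower (0.735%). Its windows below an unadjusted 0.05 numbered 1229 (12%) and 1721 (16.9%). At day 7 it called 0 windows, with 619 (6.06%) below an unadjusted 0.05. Of regions, it called 10 (0.0837%) over both days and 81 (0.678%) at day 3, with 1121 (9.38%) and 1488 (12.5%) below an unadjusted 0.05, and none at day 7 (632 or 5.29%). That fit left 2 residual degrees of freedom and shared 1 estimate of the variance among all windows, and without the pairing it called 0 windows over both days and 2 at day 3. Without the MI or the sham library of day 3 number 2 it called 7 windows at day 3, all lower, and without the MI or the sham library of day 3 number 3 it called 47 and 43. Windows that the fit of 8 libraries called are therefore given below with both adjusted p values where the comparison is first described. Where levels are scaled to all deposited pairs in place of pairs in regions, the median difference of all windows at day 3 is 0.192 in place of -0.0055, and 865 windows are higher and 80 lower at an unadjusted p under 0.05.

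**Figure D1:**
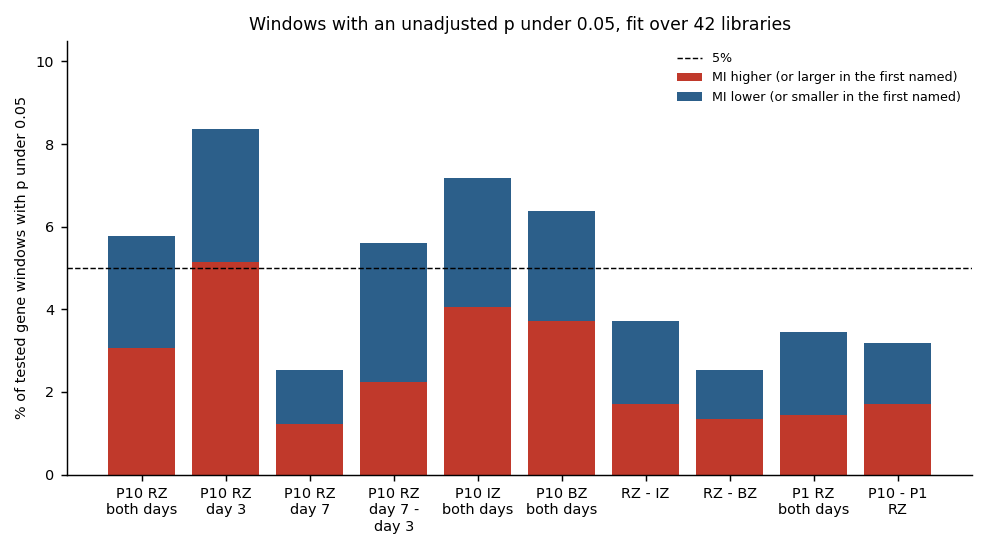
Percent of the 10208 tested gene windows with an unadjusted p under 0.05 (y axis) for each comparison (x axis) in the fit over 42 libraries; red, MI higher or larger in the first named, blue, the opposite, and the dashed line marks 5%. Over both days the P10 RZ stood at 5.78%, against 7.17% in the IZ, 6.39% in the BZ and 3.44% in the P1 RZ, and by day the P10 RZ stood at 8.38% at day 3 and 2.54% at day 7.

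MI was above sham in all 4 pairs in 6.49% of windows and below it in all 4 in 6.72%. How many of all windows or regions had arms without overlap was not counted. Such separation is therefore a description only, also for the day 3 windows and list sums with 2 libraries in each arm. The windows and regions named were picked by small p. Lrp1, a large endocytic receptor that clears lipoproteins and dying cells, had the smallest p among windows that were higher in all 4 pairs. Its gene lies at chr10:127538161-127621148 (GRCm38, protein-coding, minus strand). The window stood at 2015, 1990, 1951 and 2086 CPM in MI and 1563, 1678, 1770 and 1586 CPM in sham. The 4 MI libraries were close to each other, and each lay above every sham library. The log2 difference over both days was 0.26 ± 0.06 (SE, adjusted p = 0.389 in the fit of 42 libraries and 0.00906 in the fit of 8). It was 0.34 ± 0.09 at day 3 (adjusted p = 0.225 and 0.00785) and 0.18 ± 0.08 at day 7.

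Of the other windows higher in all 4 pairs, none passed in the fit of 42 libraries. Dram2, a lysosomal membrane protein linked to autophagy, stood at 262, 305, 240 and 359 CPM in MI and 125, 222, 168 and 248 CPM in sham. Only MI day 7 number 1 lay below a sham library, and the difference was 0.68 ± 0.19 (adjusted p = 0.584 with 42 libraries, 0.0175 with 8). Ano9, of the anoctamin family of membrane proteins, stood at 166, 145, 86.1 and 79.7 CPM in MI and 45.4, 79.7, 53.5 and 45.9 CPM in sham. All 4 MI libraries lay above the highest sham library, MI day 7 number 2 by the least margin (1.10 ± 0.30, adjusted p = 0.584 and 0.0175). P2ry2, a receptor for extracellular ATP and UTP, stood at 179, 247, 152 and 166 CPM in MI and 128, 159, 82.1 and 36.7 CPM in sham. The arms overlapped by the day 3 sham library of number 3, and the difference was 0.85 ± 0.26 (adjusted p = 0.689 and 0.0308). Actn1, which cross-links actin filaments, was 1.44 ± 0.39 higher, with 0 pairs in sham day 7 number 2, and did not pass in either fit (adjusted p = 0.584 and 0.0927).

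Ciita, the transcriptional coactivator on which MHC class II expression depends, was lower in MI in all 4 pairs. Its gene lies at chr16:10480059-10528418 (GRCm38, protein-coding, plus strand). The window stood at 89.7, 58.1, 143 and 93.0 CPM in MI and 176, 176, 178 and 211 CPM in sham. Every MI library lay below every sham library, and the sham libraries were close together apart from day 7 number 2. The log2 difference was -0.81 ± 0.24 (adjusted p = 0.617 with 42 libraries and 0.0267 with 8). Counted over all pairs of the window, in regions or not, the difference was -0.36, and again negative in 4 of 4 pairs. H2-Aa, H2-Ab1, H2-Eb1 and Cd74, which encode class II chains and their chaperone, had differences of 0.13 ± 0.40, 0.04 ± 0.29, 0.02 ± 0.40 and -0.07 ± 0.15, none past the test. Counted over all pairs, H2-Aa, H2-Ab1 and H2-Eb1 stood at -0.30, -0.12 and -0.32 and Cd74 at 0.05, again none past the test.

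Of the other windows lower in all 4 pairs, Lrrc59, an endoplasmic reticulum membrane protein, stood at 55.2, 58.1, 84.3 and 79.7 CPM in MI and 105, 171, 125 and 202 CPM in sham. The arms did not overlap (-0.94 ± 0.26, adjusted p = 0.595 with 42 libraries and 0.0454 with 8). Fam3b, a secreted cytokine-like protein, stood at 51.8, 29.1, 67.8 and 53.1 CPM in MI and 113, 96.7, 104 and 147 CPM in sham, again without overlap (-1.04 ± 0.29, adjusted p = 0.617 and 0.0288). Tbc1d4, a regulator of glucose transporter traffic, stood at 82.8, 102, 80.6 and 53.1 CPM in MI and 235, 148, 99.9 and 138 CPM in sham. MI day 3 number 3 lay just above the lowest sham library (-0.91 ± 0.26, adjusted p = 0.595 and 0.0175). Phb, a mitochondrial scaffold protein, and Mrgprd, a receptor known from sensory neurons, had no pair in MI day 3 number 3, the shallowest library. Their other MI libraries stood at 46.5 to 115 and 53.1 to 104 CPM, against 96.7 to 125 and 107 to 154 CPM in sham (-1.40 ± 0.34 and -1.41 ± 0.36, adjusted p = 0.39 and 0.417 with 42 libraries). The fit of 8 libraries called both, with smaller differences of -1.06 ± 0.27 (adjusted p = 0.0234) and -1.04 ± 0.25 (adjusted p = 0.0175).

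**Figure D2:**
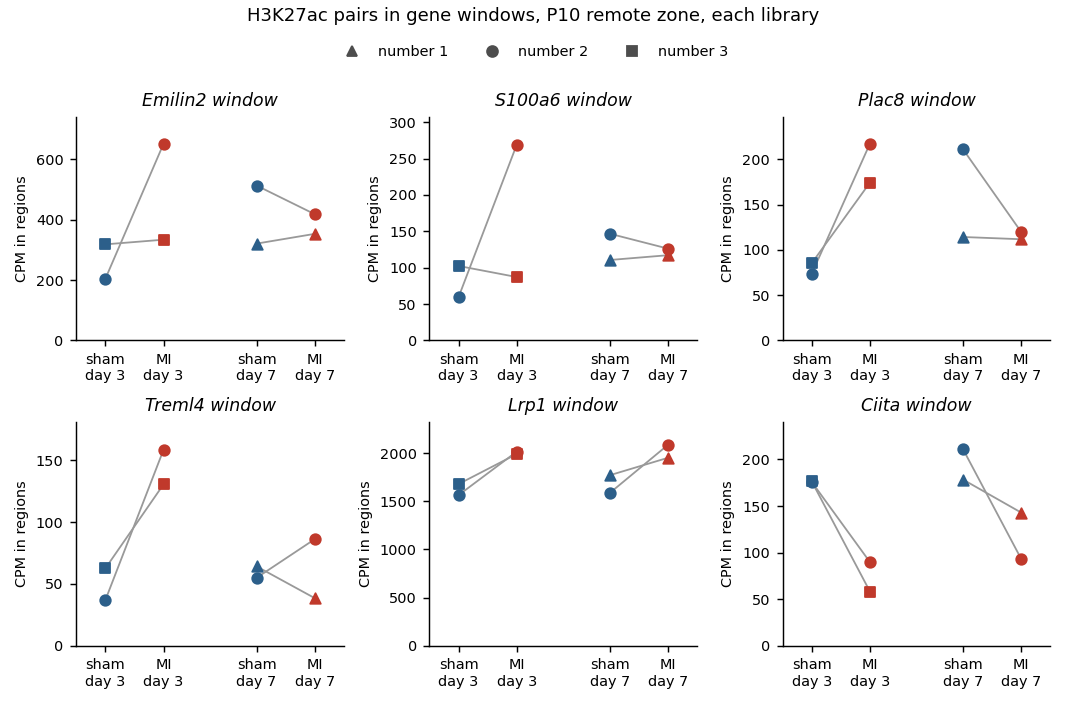
CPM in regions (y axis, from 0) of 6 gene windows in each of the 8 P10 RZ libraries, by day and surgery (x axis); red, MI, blue, sham, with a marker shape for each number and a grey line joining each pair. Lrp1 and Ciita separated the arms in all 4 pairs, while Emilin2 and S100a6 differed at day 3 in the pair of number 2 and by far less in that of number 3.

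Day 3 held most of the windows called from the 8 libraries, and these covered 161 separate stretches of the genome, since neighbouring windows share regions. The windows described next were chosen after their values were seen. Emilin2, an extracellular matrix glycoprotein, had the smallest p at day 3. It stood at 652 and 334 CPM in MI numbers 2 and 3, against 204 and 319 CPM in sham (1.26 ± 0.26, adjusted p = 0.0762 with 42 libraries and 5.11e-08 with 8). The pair of number 2 differed by 1.67 and that of number 3 by 0.087, and the sham value of number 2 was the lowest of all 8 libraries. At day 7 the window stood at 354 and 418 CPM in MI and 321 and 514 CPM in sham, a difference of -0.0063 ± 0.24.

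The window of S100a6 and S100a4, neighbouring genes of calcium-binding proteins that share the same regions, had the same form. It stood at 269 and 87.2 CPM in MI and 59.6 and 102 CPM in sham at day 3 (1.61 ± 0.38, adjusted p = 0.0965 with 42 libraries and 1.72e-05 with 8). The pair of number 3 went the other way, by -0.157. Fgr, a Src family kinase of myeloid cells, stood at 569 and 465 CPM in MI and 224 and 432 CPM in sham (0.95 ± 0.27, adjusted p = 0.244 and 0.000173 with 8 libraries). Itgam, the CD11b integrin chain, was 0.64 ± 0.25 higher (adjusted p = 0.436 and 0.0273), with pair differences of 0.954 and -0.0034. In these 3 windows MI number 2 was the highest and sham number 2 the lowest library of day 3, and the pair of number 3 differed little.

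Other day 3 windows were higher in both pairs. Plac8, expressed by monocytes and other immune cells, stood at 217 and 174 CPM in MI and 73.7 and 85.3 CPM in sham (1.37 ± 0.38, adjusted p = 0.232 with 42 libraries and 0.00124 with 8). Treml4, a receptor of Ly6c-low monocytes, stood at 159 and 131 CPM in MI and 36.9 and 62.6 CPM in sham (1.75 ± 0.50, adjusted p = 0.244 and 0.00237). In both, each MI library lay above each sham library of that day. At day 7 neither had this order: Plac8 stood at 112 and 120 CPM in MI and 114 and 211 CPM in sham, and Treml4 at 38.5 and 86.3 against 64.2 and 55.0 CPM. Slfn1, an interferon-inducible gene of the Schlafen family, stood at 293 and 247 CPM in MI and 108 and 137 CPM in sham at day 3, and at 198 and 166 against 203 and 339 CPM at day 7. Its day 3 difference was 1.26 ± 0.32 (adjusted p = 0.207 with 42 libraries and 0.000246 with 8) and its day 7 difference -0.34 ± 0.28. Plaur, the urokinase receptor, stood at 369 and 334 CPM in MI and 165 and 193 CPM in sham at day 3 (1.05 ± 0.34, adjusted p = 0.296 and 0.000619).

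The promoters of Lrp1, Fgr, Plac8 and S100a6 are shown as examples from the windows named above, Lrp1 for both days together and the others for day 3, where several windows had a smaller p, and each overlaps a counted H3K27ac region. The 200 bases run from 250 to 51 bases before the gene start, 5′ to 3′ on the strand of the gene (GRCm38, sequences from RefSeq). Capitals mark the motif letters given above, and TGTGGT, the only one found, was present in 11.6% of 32851 promoters. The same stretches of Emilin2, Slfn1 and Treml4, also named above, were searched too, held no match and are not printed.
Lrp1, chr10:127621199-127621398, minus strand: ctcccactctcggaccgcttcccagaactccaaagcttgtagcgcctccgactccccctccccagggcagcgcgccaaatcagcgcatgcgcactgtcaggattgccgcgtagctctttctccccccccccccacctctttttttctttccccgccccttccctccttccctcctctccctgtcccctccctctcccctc
Fgr, chr4:132973845-132974044, plus strand: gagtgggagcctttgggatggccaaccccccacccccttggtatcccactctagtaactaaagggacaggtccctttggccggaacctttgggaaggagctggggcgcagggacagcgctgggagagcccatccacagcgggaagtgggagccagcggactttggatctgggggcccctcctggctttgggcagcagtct
Plac8, chr5:100572256-100572455, minus strand: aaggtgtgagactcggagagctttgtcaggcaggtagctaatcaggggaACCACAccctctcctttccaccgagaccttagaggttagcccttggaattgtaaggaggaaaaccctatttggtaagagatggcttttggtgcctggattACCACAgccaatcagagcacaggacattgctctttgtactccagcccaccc
S100a6, chr3:90612644-90612843, plus strand: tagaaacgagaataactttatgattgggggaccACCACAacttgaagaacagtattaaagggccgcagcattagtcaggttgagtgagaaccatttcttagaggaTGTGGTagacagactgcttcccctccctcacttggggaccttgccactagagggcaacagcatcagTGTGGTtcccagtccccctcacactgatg

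**Figure D3:**
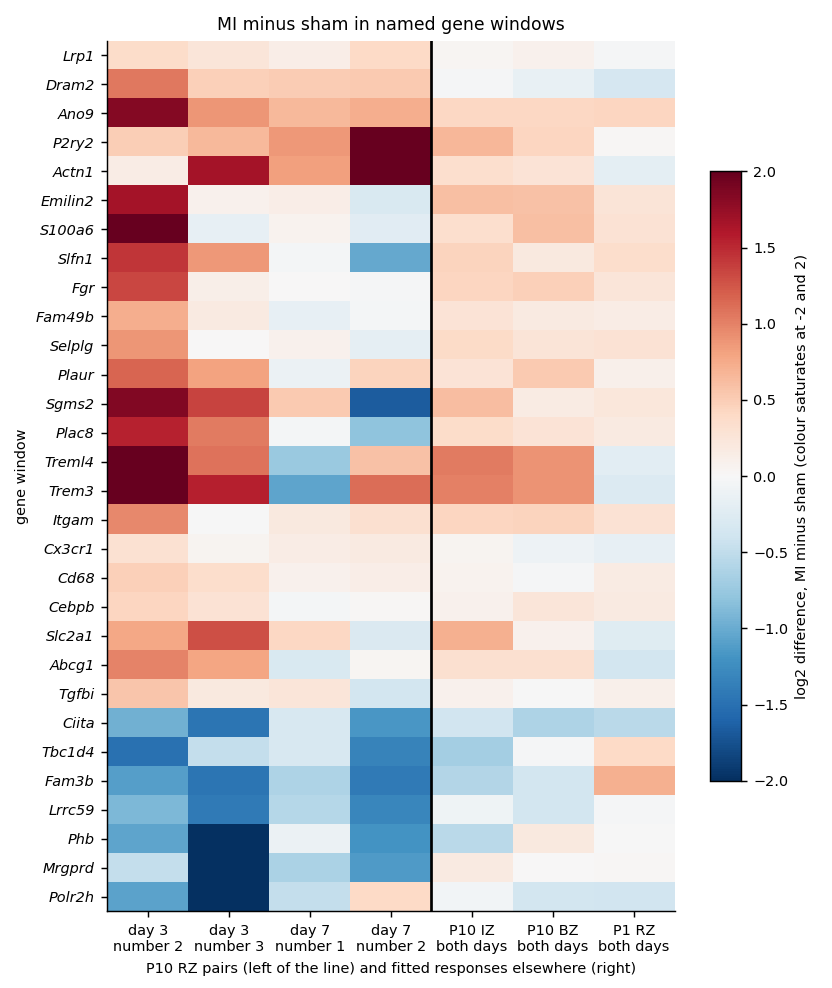
Log2 difference of MI minus sham (colour, from blue for lower to red for higher, saturating at -2 and 2) in 30 named gene windows (y axis) for the 4 P10 RZ pairs and, right of the line, the fitted responses over both days in P10 IZ, P10 BZ and P1 RZ (x axis). Emilin2, S100a6 and Fgr are dark red in the day 3 pair of number 2 and pale in that of number 3, while Ano9, Ciita and Fam3b keep 1 colour over the 4 RZ pairs.

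Whether the response differed between days was tested directly. No window passed in the fit of 42 libraries (smallest adjusted p = 0.616), and 572 (5.6%) had an unadjusted p under 0.05, 343 of them (3.36%) with a smaller and 229 (2.24%) with a larger difference at day 7. With the 8 libraries, 61 windows (0.598%) passed, 44 with a smaller (0.431%) and 17 with a larger (0.167%) difference at day 7, and 1254 (12.3%) were below an unadjusted 0.05. Of regions, 649 (5.43%) were below it in the fit of 42 libraries, and the fit of 8 called 6 (0.0502%), with 1102 (9.22%) below an unadjusted 0.05. The called windows included Emilin2 (-1.27 ± 0.35, adjusted p = 0.629 with 42 libraries and 0.00182 with 8), Slfn1 (-1.60 ± 0.42, 0.616 and 0.00266), Plac8 (-1.67 ± 0.53, 0.69 and 0.0141) and the S100a6 window (-1.63 ± 0.52, 0.69 and 0.0141). For Lrp1 and Ciita the difference between days did not pass in either fit (-0.16 ± 0.12 and 0.56 ± 0.47).

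Gene lists were described by their windows, counted from pairs in regions unless all pairs are named, and not tested as sets, and no member passed in the fit of 42 libraries. Over both days the median difference of all windows was -0.0057, and at day 3 it was -0.0055. The classical monocyte list had the highest day 3 median among lists with 3 or more windows, at 0.724 over its 4 windows of 8 genes that held enough pairs in regions. All 4 were above 0, as were 49.3% of all windows, and Plac8 had an unadjusted p under 0.05, while Ccr2, the receptor by which monocytes leave the marrow, stood at 0.03 ± 0.18 and F13a1 at 0.08 ± 0.35. The summed level of the list was 1090 and 1002 CPM in MI at day 3 and 825 and 905 CPM in sham, without overlap. At day 7 its median was -0.144 and its sums overlapped, at 773 and 1056 CPM in MI and 742 and 1275 CPM in sham. Counted over all pairs, all 8 genes could be measured and all 8 were above 0 at day 3, with a median of 0.651. Of all windows counted that way, 50.6% were above 0, with a median of 0.0066, and 12.1% had an unadjusted p under 0.05. Among the 8 genes was Ly6c2, which encodes the surface marker of this monocyte class, at 44.3 and 36.3 CPM in MI and 17.3 and 16.3 CPM in sham (1.26 ± 0.52, unadjusted p = 0.0188). The Ly6c-low monocyte list had a day 3 median of 0.224 over 6 windows, led by Treml4 and by Cx3cr1, the fractalkine receptor, which was 0.20 ± 0.08 higher over both days in 4 of 4 pairs (unadjusted p = 0.0137). Reads of low mapping quality had been removed, so the levels of genes with close copies are uncertain. Examples are Ly6c2, Ly6g, the Schlafen genes and the class II genes.

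The resident macrophage list, which holds Lyve1, Cbr2, Folr2 and Mrc1, had a day 3 median of -0.126 and a day 7 median of -0.01 over 11 windows, and none of them had an unadjusted p under 0.05 on either day. Over all pairs 1 of 12 did, Timd4, a receptor for dying cells, at -0.80 at day 7. The share of all windows under an unadjusted 0.05 in that count at day 7 is not given here, so nothing is read from this 1 window. Lyve1, a hyaluronan receptor, stood at -0.17 ± 0.23 at day 3, and Cd163, the haemoglobin scavenger receptor, at -0.54 ± 0.37. The list of MHC class II genes had a day 3 median of -0.434 and a day 7 median of 0.13 over 7 windows, and Ciita alone among them had an unadjusted p under 0.05. In the macrophage lineage list, 4 of 12 windows had an unadjusted p under 0.05 at day 3, against 8.38% of all windows, and 3 of these, Cebpb (0.39 ± 0.14), Cd68 (0.43 ± 0.16) and Itgam, had a positive difference. The list median was 0.21. Over all pairs, 10 of the 12 were above 0, with a median of 0.353, and 5 above and 1 below 0 had an unadjusted p under 0.05, against 12.1% of all windows in either direction. The clearance and lipid list had a day 3 median of 0.166 over 11 windows and was led by Lrp1 and Abcg1, a cholesterol exporter, which stood at 238 and 232 CPM in MI and 119 and 137 CPM in sham at day 3 (0.89 ± 0.31, adjusted p = 0.364 with 42 libraries and 0.0183 with 8). The hypoxia and glycolysis list had a median of 0.311 over 7 windows, with 1 under an unadjusted 0.05, the glucose transporter gene Slc2a1 (0.87 ± 0.33, adjusted p = 0.429 with 42 libraries and 0.0284 with 8).

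Among the lists tied to inflammation, interferon and early response, no member had an unadjusted p under 0.05 at day 3 when pairs in regions were counted. Counted over all pairs, 1 of 11 inflammatory, 2 of 11 interferon and 1 of 11 early response windows did, near the 12.1% of all windows: Nfkbia at 0.57, Ifit1 at -1.03 and Ifit2 at -0.52, and Hspa1b at 0.58. The inflammatory response list, with Il1b, Tnf and Ccl2, had a day 3 median of -0.018 over 11 windows. The interferon response list stood at -0.123 over 8 windows and the early response list, which includes Fos, Jun and Egr1, at -0.0078 over 11. The Arg1 macrophage list stood at 0.122 over 5 windows, with Trem2 at 0.84 ± 0.42 and Cd63 at -0.98 ± 0.47, both under an unadjusted 0.05. The S100a9 Ly6c monocyte list stood at 0.0924 over 3 windows of 7 genes, the wound repair list at 0.126 over 6 and the iron list at -0.162 over 5. The proliferation list stood at -0.043 over 4.

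**Figure D4:**
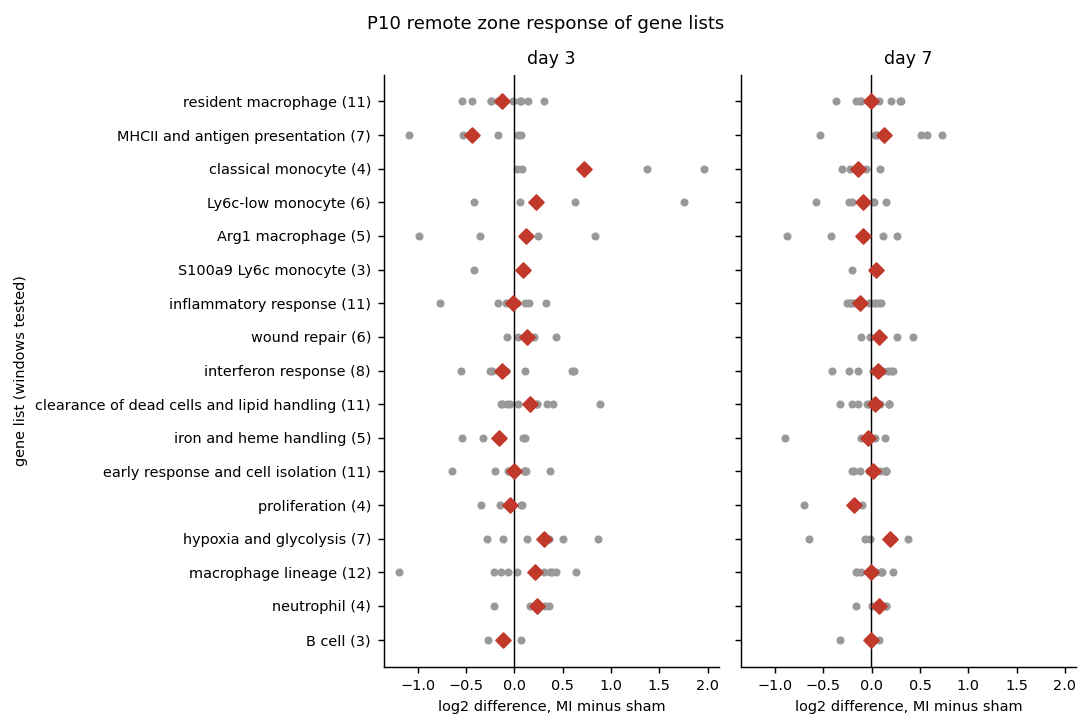
Log2 difference of MI minus sham (x axis) in the P10 RZ at day 3 (left) and day 7 (right) for each tested window (grey points) of the lists with 3 or more windows (y axis, number of windows in brackets); red diamonds are list medians and the line is the median of all windows. The classical monocyte list stood at 0.724 at day 3 and -0.144 at day 7.

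Markers of other cell types were read beside the day 3 comparison. Of all windows at day 3, 8.38% counted in regions and 12.1% counted over all pairs had an unadjusted p under 0.05. Over all pairs, 50.6% of all windows were above 0. The gate kept CD45+ F4/80+ cells and would remove cardiomyocytes, which lack CD45, and B cells, which lack F4/80. The neutrophil list had a day 3 median of 0.237 over 4 windows, with none under an unadjusted 0.05. Counted over all pairs, Ly6g, a neutrophil surface protein, stood at 35.0 and 36.3 CPM in MI and 2.66 and 10.9 CPM in sham at day 3 (2.45 ± 0.70, unadjusted p = 0.00116). At day 7 it stood at 22.4 and 16.3 CPM in MI and 18.3 and 24.2 CPM in sham. The gene lies close to Ly6c2, so the windows of both share pairs and are not separate readings. Also over all pairs, Myh6, the atrial and adult cardiac myosin heavy chain, stood at 22.1 and 0 CPM in MI at day 3 and 61.3 and 73.2 CPM in sham (-2.78 ± 0.70, unadjusted p = 0.000254, adjusted p = 0.127 with 42 libraries and 0.0431 with 8), the only one of 6 cardiomyocyte windows with an unadjusted p under 0.05. In the same count Ebf1, a transcription factor that B cells need, stood at 48.0 and 50.8 CPM in MI at day 3 and 104 and 106 CPM in sham (-1.12 ± 0.44). Pax5, which fixes B cell identity, stood at 46.1 and 29.0 CPM in MI and 94.6 and 51.5 CPM in sham (-0.95 ± 0.41). The 5 B cell windows counted over all pairs were below 0 and these 2 had an unadjusted p under 0.05, against 12.1% of all windows. In regions 3 B cell windows were measured, 1 of them above 0, and none was under 0.05. Counted in regions, Klrb1c, the NK1.1 receptor of natural killer cells, stood at 128 and 116 CPM in MI and 235 and 171 CPM in sham (-0.80 ± 0.30, unadjusted p = 0.0107), while none of the 3 NK cell windows counted over all pairs was under 0.05, with a median of -0.30. Of 6 endothelial windows counted over all pairs, Cdh5 stood at 0.97 ± 0.41 and Tek at -1.21 ± 0.56, both under an unadjusted 0.05. The part of these cell types in the day 3 differences was not tested.

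The RZ response was set against that of the other zones. No window passed the test between the RZ and IZ responses (smallest adjusted p = 0.998, with 379 or 3.71% under an unadjusted 0.05) or between the RZ and BZ responses (smallest adjusted p = 0.999, 258 or 2.53%). Emilin2 was 0.63 ± 0.18 higher in the RZ over both days (adjusted p = 0.595 with 42 libraries and 0.00554 with 8), 0.61 ± 0.18 in the IZ and 0.59 ± 0.17 in the BZ. Treml4 was 0.76 ± 0.38 higher in the RZ, 1.04 ± 0.34 in the IZ and 0.90 ± 0.32 in the BZ. Itgam stood at 0.43 ± 0.17, 0.44 ± 0.19 and 0.44 ± 0.17 in the same order, and Ciita at -0.81 ± 0.24, -0.38 ± 0.27 and -0.61 ± 0.24. Lrp1 stood at 0.26 ± 0.06, 0.03 ± 0.08 and 0.08 ± 0.06, a difference between RZ and IZ of 0.23 ± 0.10 that did not pass (adjusted p = 0.998, unadjusted p = 0.0335).

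The response of the P1 RZ, from hearts operated on at postnatal day 1, was set against that at P10 in the same fit. No window passed the test between ages (smallest adjusted p = 1, with 325 or 3.18% under an unadjusted 0.05), and each P1 day 3 group had 1 library. Lrp1 stood at 0.26 ± 0.06 at P10 and -0.016 ± 0.11 at P1, Ciita at -0.81 ± 0.24 and -0.55 ± 0.36, and Emilin2 at 0.63 ± 0.18 and 0.26 ± 0.21. Fam3b had opposite signs, at -1.04 ± 0.29 and 0.72 ± 0.37, a difference of -1.75 ± 0.47 that did not pass (adjusted p = 1).

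MI and sham were also compared as whole libraries, by the difference between 2 libraries that is left after counting error. It was taken over the 2436 regions with the highest mean counts. It also holds any spread between sampled cells, pools of hearts and library preparations, so it is not the size of an MI effect alone. In the RZ, MI and sham of the same number differed by 23.0% and 13.4% at day 3 and by 6.55% and 25.2% at day 7. Libraries of 1 RZ group that differ only in number lay 16.7% (MI) and 16.6% (sham) apart at day 3, and 23.99% and 26.8% apart at day 7. The pair of day 3 number 2 lay above both distances between numbers of its day, and the 3 other pairs lay at or below the larger of theirs. In the IZ at day 3, MI and sham of the same number differed by 27.2% and 38.8%, against 38.7% and 22.5% between numbers. RZ libraries of day 3 that differed in both surgery and number lay 18.5% and 20.9% apart. Sequencing flow cells, read from the read names, were shared by the MI and sham RZ libraries of a day and number and differed between the numbers of a day.

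**Figure D5:**
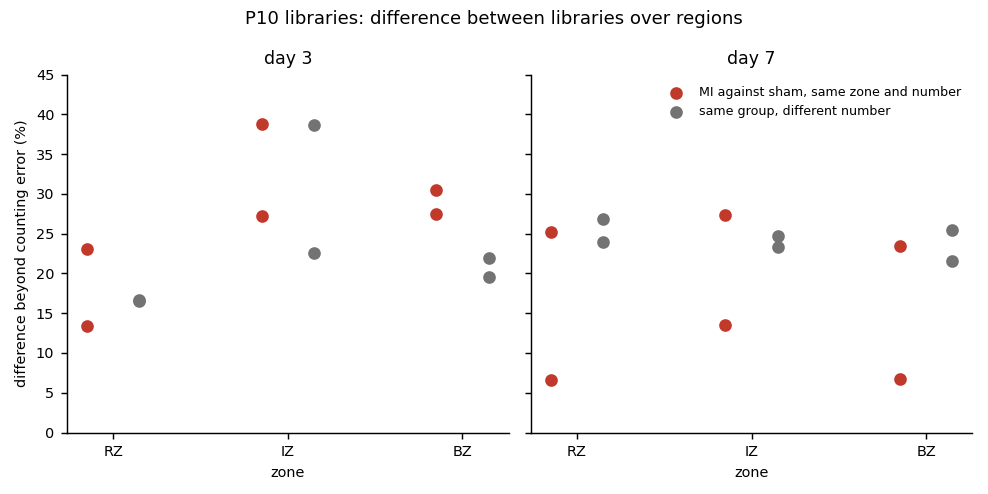
Difference between P10 libraries beyond counting error (y axis, %) over 2436 regions by zone (x axis) at day 3 (left) and day 7 (right); red points are MI against sham of the same number, grey points are libraries of 1 group with different numbers. In the RZ only the day 3 pair of number 2, at 23.0%, lay clearly above the grey points of its day.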

How the data were processed

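The deposited files list aligned reads of each library. Per the study's methods, the authors sorted live CD45+ F4/80+ cells in buffers with sodium butyrate, a histone deacetylase inhibitor, aligned reads to mm10 with Bowtie2 and removed reads of low mapping quality and duplicates. The submitters' processing notes also name Picard, deepTools and MACS2 2.2.7.1. The only measured column in the deposited files is the mapping score of each read. No cell barcodes are used here, so each library was treated as bulk.

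Mates were joined by read name, repeated lines (18 libraries) were dropped, and 17959096 pairs were counted from 38097100 lines. Regions were 500 bp bins with at least 4 times the mean signal, merged within 1000 bp. Windows covered 21938 GENCODE protein-coding genes. Counts were scaled by TMM and tested with limma 3.58.1 (voom, R 4.3.3) on 42 libraries in 24 groups, with the replicate number as a fixed block and the pool of hearts as a random block, keeping windows that averaged 10 pairs or more (10208) and regions that averaged 3 or more (11951). Adjusted p values are Benjamini-Hochberg, with a threshold of 0.05. A second fit used the 8 RZ libraries alone. The files hold read positions and not a count table, so counts were derived from them, and no count model was fitted. Counting used Python 3.11.15, numpy 2.4.6, pandas 2.3.3 and scipy 1.17.1, and figures matplotlib 3.10.9. The fits were also run on simulated counts with known changes, and the outcome is not given here. In these counts numbers 2 and 3 of P10 day 3 did not differ, and all windows had the same dispersion. The run therefore cannot show how the fits behave on the spread of the real libraries.

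Pairing was taken from replicate numbers of the same day, and MI and sham of 1 number shared sequencing flow cells. Deviations of same-numbered RZ libraries from their group means correlated by 0.0626 at day 3 and 0.316 at day 7 over 3765 windows, with -0.334 in the day 3 IZ. No read name was shared between the 8 RZ libraries.

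Gene lists, named windows and comparisons were chosen with earlier results of these data known. Named windows were those with the smallest p among windows with the same sign in all 4 pairs, up to 5 per direction, and the list members with the smallest p. Alternatives were other scalings, filters, window sizes, region sets, counts of all pairs, fits without the block or on fewer libraries, and leaving out each library. The authors' single-cell clusters were not used here. Results on some genes are not reported here.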

Additional observations from a re-analysis of the deposited data

Results flagged for a closer look

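Of 84 sets of 4 libraries examined, 2 held a library far from the other 3 by Dixon's criterion, and chance gives about 1 in 20. In the sham arm of the Ciita window, day 7 number 2 stood at 210.9 CPM while the other libraries stood at 175.8 to 178.4 CPM (gap over range 0.926). In the sham arm of the region in the Cyp4f17 intron, day 3 number 2 stood at 2.729 CPM, which is 1 pair, and the others at 0. The cause of either was not tested.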

How the results depend on the processing

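The fit of 42 libraries called 0 windows and 0 regions, and most settings left this count at 0. Fitting the 8 RZ libraries alone called 55 windows over both days, 270 at day 3 and 61 between days, and 10, 81 and 6 regions. Without the replicate block that fit called 2 windows at day 3, 1 between days and 0 over both days, and 7 and 3 regions at day 3 and between days, while the fit of 42 without the replicate block called 0. The fit of 8 without the replicate block, the exchange of the day 3 IZ numbers (0 calls), the fit of 8 on all pairs (238 windows at day 3) and the fit of 8 without single libraries were chosen after seeing the data. With no filter on low counts 1 window was called over both days and 2 at day 3, with the filter doubled 1 at day 3, and with 5 kb windows 1 at day 3. The 24 P10 libraries alone gave 9 regions at day 3 and 1 between days.

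Leaving out single libraries gave 0 to 26 windows over both days, 0 to 317 at day 3, 0 to 23 at day 7 and 0 to 57 between days, and 0 to 23, 0 to 77 and 0 to 10 regions over both days, at day 3 and between days. In the fit of 42, omitting MI day 3 number 2 called 7 windows over both days, 10 at day 3, 1 between days, 2 for RZ against IZ, 3 for RZ against BZ and 1 region at day 3. Omitting MI day 7 number 1 called 1, 2 at day 7 and 1 between days, and omitting MI day 3 number 3 called 1 region at day 3. In the fit of 8, both-day calls were 7 without either library of day 3 number 2, 26 and 15 without MI and sham of day 3 number 3, and 1, 6, 7 and 6 without the day 7 libraries (MI 1, MI 2, sham 1, sham 2). Day 3 calls of that fit were 7 without either library of number 2, 47 and 43 without MI and sham of number 3, and 317, 316, 292 and 308 without the day 7 libraries, with 0, 28, 31, 60, 61, 59 and 77 regions in the same order. Its day 7 calls were 4 without MI number 1 and 23 without sham number 1. Its calls between days were 1 without either library of day 3 number 2, 21 and 17 without MI and sham of number 3, 47 without MI day 7 number 1, 57 without sham day 7 number 1 and 0 without the others, with 0, 4, 10, 5, 7 and 0 regions. The cause of these shifts was not tested.

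The difference in the share of pairs in regions ranged from -0.2916 percentage points without the pair of day 3 number 2 to 3.69 without that of day 7 number 2. That in the promoter share ranged from -0.3518 without the pair of day 7 number 2 to 0.3382 without that of day 3 number 2, and was 0.1927 without that of day 7 number 1 and 0.0043 with fully mated pairs only. Cebpb over both days was -0.069 with 5 kb windows. Without either library of day 3 number 2, S100a6 at day 3 was -0.154 and Itgam -0.000984 in the fit of 8. Scaled to all deposited pairs, windows below an unadjusted 0.05 split 384 higher and 88 lower over both days, with a median of all windows of 0.0825. Depth limits windows under about 43.0 CPM in the shallowest library.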
